A study of Mus musculus with 4 samples.

Results

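Marrow T and NK-like cells were 174 of 16280 cells kept from 4 single-cell RNA libraries of mouse bone marrow, 154 of them T members and 20 NK members. A cell was kept with 500 or more UMIs (unique molecular identifiers, each standing for 1 captured RNA molecule), 200 or more genes and no more than 10% of its UMIs from mitochondrial genes. A T member had at least 2 UMIs of the CD3 chain genes Cd3d, Cd3e and Cd3g together. An NK member had no CD3 UMI and at least 1 UMI of 2 or more of Klrb1c, Ncr1, Klrd1 and Gzma. Both kinds also had no UMI of the B cell gene Cd79a or the plasmacytoid dendritic cell gene Siglech, and fewer than 10 Mpo UMIs per 10000. Members were thus chosen by measured values, the UMI counts of these 10 genes, which are given as a description only.

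The genotypes were Idh1-R132H, heterozygous for the arginine-to-histidine change in isocitrate dehydrogenase 1, and Idh1-WT. Each had 2 libraries, and per the labels' protocol the marrow of each chimeric mouse was sorted into a tube of its own. In both, EYFP recombination had been induced with tamoxifen for 5 days, lineage-negative EYFP+ cells were sorted 2 weeks later and given to fully irradiated mice without supportive marrow, and chimeric marrow was taken at 16 weeks. Each tube combined 4000 sorted cells from each of 3 populations, namely live EYFP+ CD45.1+ cells, LSK stem and progenitor cells and LK progenitors, the last 2 of which exclude lineage-positive cells. The labels name neither the Cre driver nor the number of donor mice, and the shares of T and NK cells below are shares of this mixture, not of marrow.

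T cells read antigen through a receptor whose signal passes through the CD3 chains, and naive CD8 T cells circulate between blood, lymph nodes and marrow with the homing receptor CCR7 on their surface. NK cells carry no such receptor and develop in the marrow under IL-15. They weigh activating against inhibitory receptors, among them the mouse Ly49 family encoded by the Klra genes, most of which read MHC class I molecules, and some T cells carry these receptors too. The Idh1-R132H enzyme makes 2-hydroxyglutarate, which inhibits dioxygenases that need 2-oxoglutarate, such as the TET proteins.

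The libraries held 3842 and 4430 kept cells for Idh1-R132H and 4503 and 3505 for Idh1-WT. Here and below, values are given for library 1 and then library 2 of each genotype. T members had median depths of 3041 and 3316 UMIs in Idh1-R132H and 3217 and 2764 in Idh1-WT. NK members had 3137 and 3262 in Idh1-R132H and 3314 and 2562 in Idh1-WT, while the other cells of the libraries had between 7303 and 8818. A total of 443 kept barcodes occurred in more than 1 library, 345 of them in both Idh1-R132H library 1 and Idh1-WT library 1, and 0 barcodes were shared between members. The barcode of 5 of the 174 members (2.87%) was kept elsewhere, against 889 of 16106 other cells (5.52%). Cells with Xist UMIs and cells with UMIs of Y-linked genes occurred among the T members of every library, and the labels give no sex. Y-linked UMIs without Xist were in 16.3% and 22.7% of Idh1-R132H T members under 100 S100a8 and S100a9 UMIs. In Idh1-WT it was 7.69% and 5.56%. Xist without Y-linked UMIs overlapped, at 48.8% and 54.5% against 59.0% and 47.2%. In the other cells the Y-linked shares were 22.5% and 28.8% against 4.83% and 16.5%. In NK members they overlapped. Sex was not a term in the fits, and its part in the genotype comparisons was not tested.

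Of the T members, 47 and 25 came from the Idh1-R132H libraries and 43 and 39 from the Idh1-WT libraries. That was 1.22% and 0.564% of the kept cells in Idh1-R132H and 0.955% and 1.11% in Idh1-WT, a mean of 0.894% ± 0.466 against 1.03% ± 0.112 (SD, n = 2 each). Idh1-R132H library 2 had the lowest share and Idh1-R132H library 1 the highest, so the genotypes overlapped. The exact two-sided permutation test over 4 libraries gave p = 1, and no such test can go below 0.333. The difference in the share was −0.139 percentage points without the S100a8-rich cells described below, against −0.140 with them (p = 1, exact permutation test). NK members numbered 4 and 7 in Idh1-R132H and 5 and 4 in Idh1-WT, which was 0.104% and 0.158% of kept cells against 0.111% and 0.114% (p = 1, exact permutation test). Idh1-R132H library 1 lay below both Idh1-WT libraries and Idh1-R132H library 2 above them. Set against cells with at least 2 UMIs of Cd79a, T members made up 26.1% and 16.2% in Idh1-R132H and 23.8% and 17.1% in Idh1-WT (p = 1, exact permutation test). The same share for NK members was 2.92% and 5.15% in Idh1-R132H and 3.50% and 2.07% in Idh1-WT (p = 0.667, exact permutation test).

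**Figure D1:**
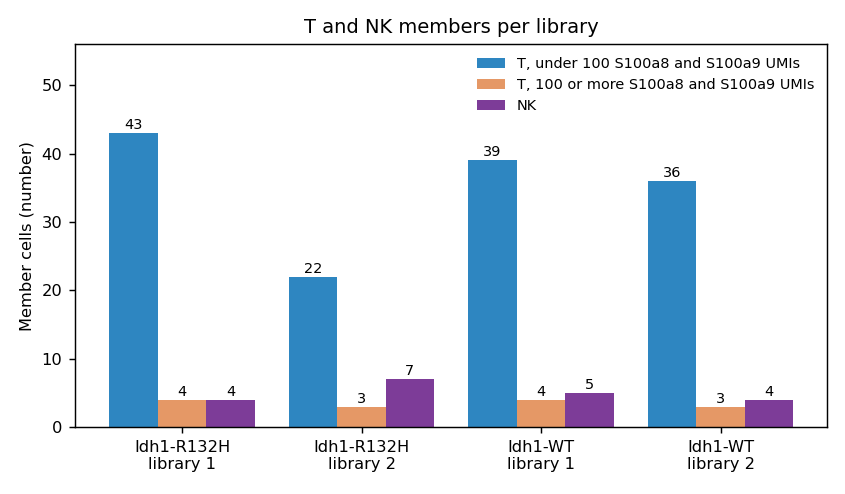
Number of member cells (y axis) in each library (x axis), with separate bars for T members under 100 UMIs of S100a8 and S100a9, T members with 100 or more, and NK members. T members under that limit numbered 43 and 22 in the Idh1-R132H libraries and 39 and 36 in the Idh1-WT libraries, and each library had 3 or 4 T members above it.

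Neutrophil genes were abundant in 14 of the 154 T members, against the label of T cell. These cells held 456 to 2812 UMIs of S100a8 and S100a9, the calgranulin genes of neutrophils, with a median of 1070, while the other 140 T members held 0 to 27 and the NK members 1 to 20. Retnlg, a resistin-like gene of neutrophils, was detected in 14 of them and Ngp, a granule protein gene, in 13. At lower levels Retnlg was also seen in 50 of the other 140 T members and 5 of the 20 NK members, and Ngp in 76 and 11. Of the 14, 13 owed their CD3 count to Cd3d alone, 0 had Cd3e and 1 had Cd3g. Lck, the kinase that starts T cell receptor signalling, was detected in 1 and its adaptor Lat in 0. The cell with 456 such UMIs, in Idh1-WT library 1, had 7 CD3, 8 CD8 and 25 Ccl5 UMIs and so carried genes of both kinds. Among the other 140 T members, 106 had Cd3e, 133 had Cd3g, 107 had Lck and 84 had Lat. The limit of 100 UMIs was set after these values were seen, and no T member lay between 27 and 456.

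Cd3d was also detected more often than Cd3e or Cd3g over all cells rich in S100a8 and S100a9. Among the 3099 kept cells with at least 100 such UMIs were the 14 T members, which all had Cd3d. Of the 3099, 148 had Cd3d (4.78%, 95% Clopper-Pearson interval 4.05 to 5.59), 5 had Cd3e (0.161%) and 11 had Cd3g (0.355%). The remaining 12438 cells were not members and had fewer such UMIs and fewer than 2 Cd79a UMIs. Of these, 0.949% had Cd3d, 0.442% Cd3e and 0.523% Cd3g. The median depth was 3335 UMIs in the S100a8-rich cells and 9739 in the remaining cells. Of the 14 T members with exactly 2 CD3 UMIs, 11 were S100a8-rich, as were 2 of 12 with 3 UMIs and 1 of 128 with 4 or more. Just outside the rule, 111 of 184 cells with 1 CD3 UMI were S100a8-rich. The 14 cells numbered 4 and 3 in Idh1-R132H and 4 and 3 in Idh1-WT and held 11.7% and 12.3% of the T members' UMIs in Idh1-R132H, against 8.17% and 9.18% in Idh1-WT. They are called S100a8-rich below, and the genotype comparisons of T members are given with and without them. No doublet caller was run here.

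**Figure D2:**
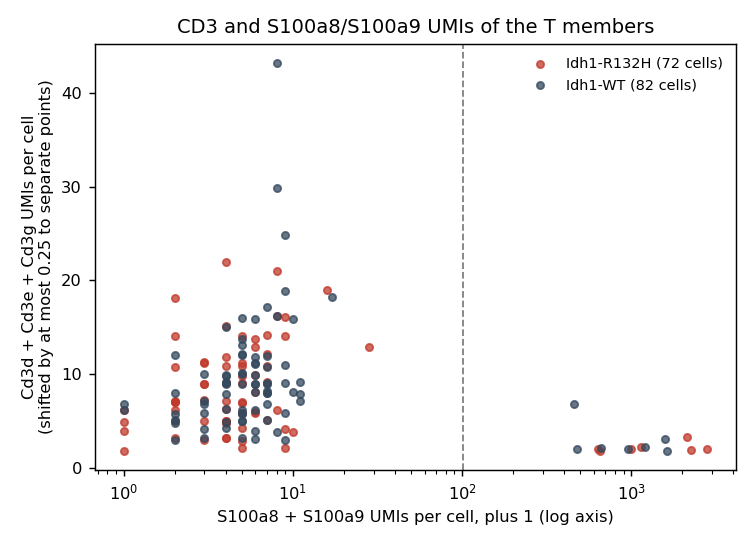
Each point is 1 of the 154 T members, with its UMIs of S100a8 and S100a9 plus 1 on a log x axis, its UMIs of Cd3d, Cd3e and Cd3g on the y axis, and colour for genotype (72 Idh1-R132H cells, 82 Idh1-WT cells). The 14 cells right of the dashed line at 100 UMIs have 2 or 3 CD3 UMIs in Idh1-R132H (7 cells) and 2 to 7 in Idh1-WT (7 cells, 6 of them at 2 or 3).

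The 140 T members without the S100a8-rich cells fell into groups by their CD8, Cd4 and Ccl5 counts. These groups were drawn after the values were seen and are described without a test. A CD8 UMI (Cd8a or Cd8b1) was found in 74 cells, a Cd4 UMI in 5, and neither in 61. Ccl5, a chemokine stored by memory and cytotoxic T cells, was split: 56 cells had no UMI of it, 13 had 1 to 9, 11 had 10 to 19, 21 had 20 to 39 and 39 had 40 or more. The line between low and high Ccl5 was put at 10 UMIs. The genes for the T cell receptor constant regions were not among the features analysed here, and the innate-like T cell regulators Zbtb16 and Sox13 had 0 UMIs in both kinds.

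The largest group was 49 CD8 cells with low Ccl5, 17 and 6 of them in Idh1-R132H and 13 and 13 in Idh1-WT. Cd8b1 was detected in 46 of the 49, and Cd3g in 45. Lef1, a transcription factor of naive T cells, was detected in 33, Dapl1 in 29 and the homing receptor gene Ccr7 in 24. Summed over the group, Ccr7 stood at 237 CPM (UMI counts scaled to 1000000 UMIs of the summed cells), Lef1 at 396 and Dapl1 at 710. The NK receptor genes Klrk1, Klre1, Klra7, Klra4 and Klra8 were at 0 UMIs in all 49 cells. Klrd1, the CD94 gene, was nevertheless present in 32 of them.

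CD8 cells with high Ccl5 numbered 25, 5 and 7 in Idh1-R132H and 6 and 7 in Idh1-WT. Cd8a was detected in 21 of them and Cd8b1 in 13, a smaller share than among the CD8 cells with low Ccl5. Nkg7, a cytotoxic granule gene, was detected in 25, Il2rb, the beta chain of the IL-2 and IL-15 receptor, in 19, and Ly6c2, a surface protein gene of memory CD8 T cells, in 23. Ccr7 was seen in 6 and Lef1 in 8. Klrk1 and Klre1 were each seen in 14 and Klra7 in 11.

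A group of 46 T members had no CD8 or Cd4 UMI and high Ccl5, 17 and 7 of them in Idh1-R132H and 13 and 9 in Idh1-WT. Its cells held many of the genes of the NK members. Klrd1 was detected in 44, Nkg7 in 44, Cd7 in 41, the chemokine gene Xcl1 in 38, the transcription factor gene Id2 in 37 and Klrk1, which encodes the activating receptor NKG2D, in 33. The signalling adaptors Fcer1g and Tyrobp, which couple NK receptors to kinases, were detected in 36 and 32. The rule asked for at least 2 CD3 UMIs in each of these cells, and Cd3d was detected in 43, Cd3g in 44 and Cd3e in 30. Of the 46 cells, 27 had 2 or more of the 4 NK genes of the rule, and 3 had Ccr7.

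Across the 140 cells the NK genes of the rule went with Ccl5. Of 71 cells with at least 10 Ccl5 UMIs, 34 had 2 or more of the 4 NK genes, against 1 of 69 cells below. Fcer1g and Tyrobp are also expressed by myeloid cells. In barcodes with at most 50 UMIs, which hold mostly free RNA, Tyrobp stood at 714 and 783 CPM in Idh1-R132H and 719 and 647 in Idh1-WT. It stood at 1476 summed over the 46 cells and at 44.8 over the CD8 cells with low Ccl5. The remaining T members were 15 cells without CD8, Cd4 or high Ccl5, and the 5 cells with Cd4. Of the Cd4 cells, 1 and 0 were in Idh1-R132H and 0 and 4 in Idh1-WT, and Foxp3, the regulator of regulatory T cells, had 0 UMIs in them.

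**Figure D3:**
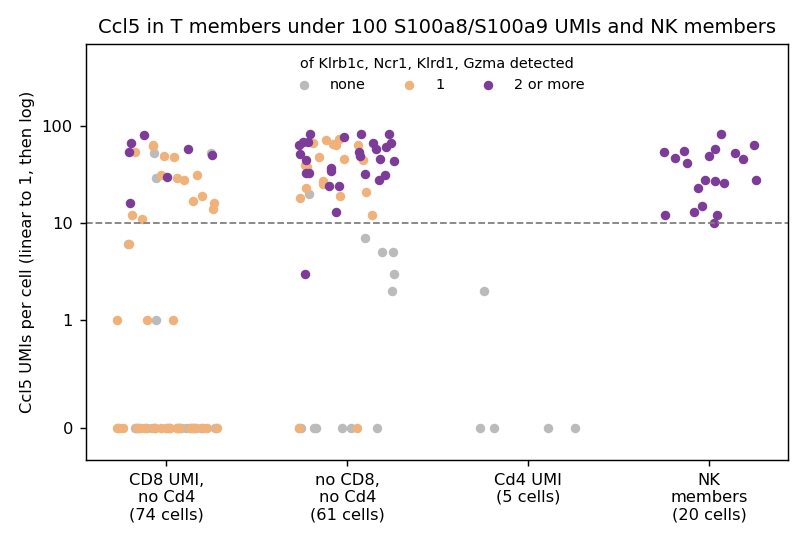
Ccl5 UMIs per cell (y axis, linear to 1 and then logarithmic) in the 140 T members under 100 UMIs of S100a8 and S100a9, by CD8 and Cd4 detection, and in the 20 NK members (x axis), with colour for the number of the genes Klrb1c, Ncr1, Klrd1 and Gzma detected. T members lie both at 0 and above the dashed line at 10 UMIs, all 20 NK members lie at 10 to 82, and cells with 2 or more of the 4 genes lie above the line except 1.

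Cell-type shares within the T members were compared between genotypes after each cell was thinned to 1500 UMIs. Cells with fewer UMIs were left out of the thinned shares, which then covered 44 and 25 T members in Idh1-R132H and 41 and 38 in Idh1-WT. A CD8 UMI was found in 45.5% and 36.0% of T members in Idh1-R132H and 36.6% and 44.7% in Idh1-WT (p = 1, exact permutation test), and without thinning in 46.8% and 52.0% against 46.5% and 51.3%. In thinned B lineage cells with Cd79a, 0 of 489 had one. Cd4 was found in 2.27% of T members in Idh1-R132H library 1 and in 0 of 25 in library 2, which allows a share of cells with a Cd4 UMI of up to 12%, against 0 of 41 in Idh1-WT library 1, which allows up to 7.32%, and 5.26% in library 2. These limits cover cells with a UMI at the thinned depth, not cells that express the gene. The genotypes overlapped in each of these shares. Leaving out the S100a8-rich cells, Idh1-R132H minus Idh1-WT was 2.75 percentage points for the CD8 share and −1.61 for the Cd4 share, against 0.0662 and −1.50 with them (p between 0.667 and 1, exact permutation tests).

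The 20 NK members were a more uniform set. Klrk1, Nkg7, Fcer1g and Ccl5 were detected in all 20, Cd7 in 18, and Klre1, Xcl1 and Id2 in 17. Klra7, which encodes the inhibitory receptor Ly49G, was detected in 15, Klra4, the gene of activating Ly49D, in 14, and Klra8, the gene of activating Ly49H, in 13. Klra1, the gene of inhibitory Ly49A, was detected in 1, and Klra5 and Klra6 in 0, so the receptors were not spread evenly over the family. Eomes, a T-box factor of NK development, had 4 and 4 UMIs in Idh1-R132H and 0 and 1 in Idh1-WT. Prf1, the perforin gene, had 0 and 0 UMIs in Idh1-R132H and 2 and 1 in Idh1-WT, and Gzmb had 2 and 1 against 3 and 3. Itgam, a gene of mature NK cells, was seen in 1 of the 20 cells, in Idh1-WT library 2. Cd27, a surface receptor gene of less mature NK cells, was found after thinning in 1 of 4 and 2 of 7 NK members in Idh1-R132H and 0 of 5 and 2 of 4 in Idh1-WT, which overlapped (p = 1, exact permutation test). The NK rule admitted 3 cells with 2 of its 4 genes, 12 with 3 and 5 with 4, while 235 cells with 1 gene and 4 cells with 2 or more genes but 1 CD3 UMI stayed outside.

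Genes such as Tmsb4x, Ccl5 and B2m led both kinds. Among genes that are not ribosomal, mitochondrial or Malat1, the T members without the S100a8-rich cells were led by Tmsb4x, which encodes an actin-binding thymosin, at 15436 ± 497 CPM (SD, n = 4 libraries), with Ccl5 at 6355 ± 1191 and B2m at 5790 ± 115. With the S100a8-rich cells included, S100a8 led the T members at 20674 ± 7092. The NK members were led by Tmsb4x at 20524 ± 1339 CPM and Ccl5 at 11517 ± 3444, followed by Tmsb10, AW112010 at 6526 ± 1767 and B2m. Counting was at the 3′ end, so a transcript gives a UMI whatever its length.

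T members differed from NK members in Cd8b1, Lat and Ms4a6b on the T side and in receptor and adaptor genes on the NK side. The rule itself made this contrast, so the values describe the 2 kinds and no p is given. The fit with the library as a block passed 42 of 702 genes (5.98%), 20 higher (2.85%) and 22 lower (3.13%) in T members. Without the S100a8-rich cells it passed 34 of 643 (5.29%), 12 higher (1.87%) and 22 lower (3.42%), and 30 genes were in both sets. Leaving out Idh1-WT library 2 gave 102 genes with all T members. S100a8, S100a9 and Camp were higher in T members with the S100a8-rich cells and lower without them, at log2 differences of −0.41, −0.45 and −0.33. The values below leave those cells out.

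Cd8b1, the CD8 beta chain gene, had 592 and 357 CPM in the T members of the Idh1-R132H libraries and 487 and 620 in those of the Idh1-WT libraries, and 0 in the NK members of all 4. Against the floor of 3 counts over all NK members, it was at least 12.7-fold higher in T members. Dapl1, Cd8a, Ccr7 and Bcl11b also had 0 UMIs in the NK members and were at least 6.32-fold, 5.19-fold, 2.62-fold and 2.01-fold higher in T members. Bcl11b maintains T cell identity. Lat had 324 and 283 CPM in the T members of Idh1-R132H and 254 and 324 in those of Idh1-WT, and 32.2 to 159 in the NK members, a log2 difference of 1.99 ± 0.54 (SE). Ms4a6b stood at 298 to 479 CPM in T members and 62.8 to 96.5 in NK members. The other 9 genes higher in T members encode ribosomal proteins.

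The NK side was led by Klra4, with 29.1 to 222 CPM in T members and 565 to 2184 in NK members, a log2 difference of −3.89 ± 0.42 (SE). Ccr2, a chemokine receptor gene, followed with 36.4 to 63.4 CPM in T members and 354 to 756 in NK members, a log2 difference of −3.50 ± 0.44. Klra7 stood at 115 to 310 in T members and 637 to 2156 in NK members, a log2 difference of −2.90 ± 0.36. None of these 3 genes, named for their large differences, overlapped between the kinds, and the share over all genes was not computed. The adaptor genes followed, with a log2 difference of −2.33 ± 0.26 for Tyrobp and −2.09 ± 0.22 for Fcer1g. Klrk1 and Klre1, receptors of the NKG2 group, differed by −1.88 and −1.89, Id2 by −1.92, the interferon gamma receptor gene Ifngr1 by −1.74, Xcl1 by −1.63 and Nkg7 by −1.47. Cd2, an adhesion receptor gene, was also lower in T members, by −1.04.

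By list, 5 of 9 measured genes of NK identity passed, all lower in T members (Xcl1, Fcer1g, Tyrobp, Nkg7 and Id2), as did 4 of 5 measured Ly49 and NKG2 genes (Klre1, Klrk1, Klra4 and Klra7). The median log2 difference was −1.47 over the NK list and −2.90 over the receptor list, against −0.11 over all genes measured. Of all genes measured, 3.42% passed as lower in T members. Of 7 measured genes of T cell signalling, Lat was higher and Cd2 lower. Lck did not pass, with 369 to 564 CPM in T members and 290 to 503 in NK members. Klra8 differed by −4.08 ± 0.99 and did not pass. Klra1 went the other way in its UMIs, with 19 and 11 in the T members of Idh1-R132H and 6 and 1 in those of Idh1-WT, against 0 and 0 and 1 and 0 in the NK members. Klra5 and Klra6 each had 33 UMIs over the T members and 0 over the NK members, at least 1.54-fold higher in T members.

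**Figure D4:**
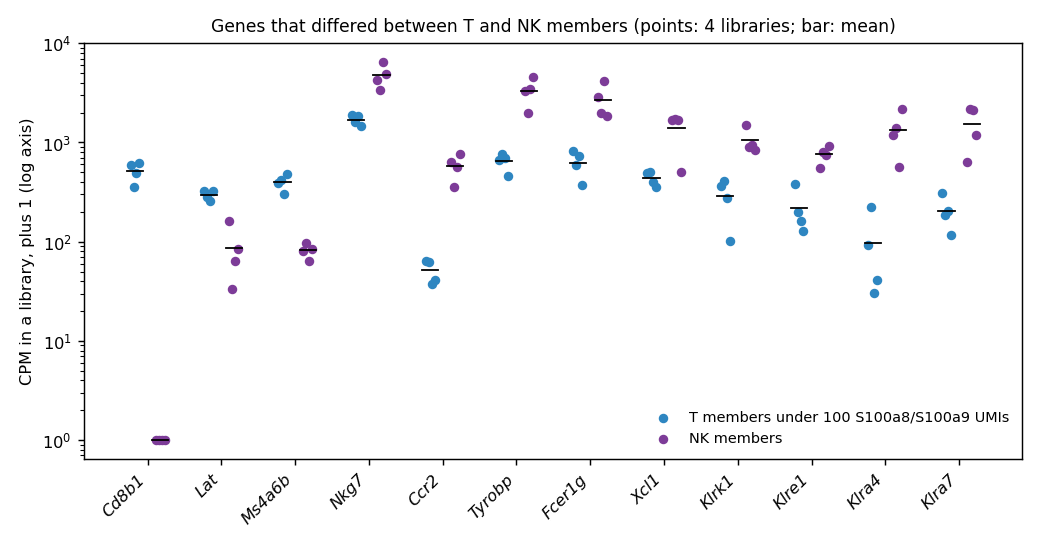
CPM plus 1 (log y axis) of 12 genes (x axis) in the T members under 100 UMIs of S100a8 and S100a9 (left of each pair) and the NK members (right). Each point is 1 of the 4 libraries and each bar the mean. Cd8b1, Lat and Ms4a6b are higher in T members and the other 9 genes higher in NK members.

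Idh1 itself gave too few UMIs in these cells to follow, with 1 and 0 in the T members of Idh1-R132H and 3 and 0 in those of Idh1-WT, and 0 and 0 against 0 and 1 in the NK members. Counts per gene do not tell the R132H allele from the wild-type allele, so Idh1 levels do not check the labels. In the other cells Idh1 stood at 58.8 and 52.4 CPM in Idh1-R132H and 58.9 and 63.9 in Idh1-WT. Idh2, the mitochondrial isoform gene, had 12 and 4 UMIs in the T members of Idh1-R132H and 10 and 9 in those of Idh1-WT. Tet2 had 1 and 0 against 2 and 0. Gt(ROSA)26Sor, the transcript of a locus often used for transgenes, had 2 and 2 UMIs in the T members of Idh1-R132H and 0 and 0 in those of Idh1-WT. In the other cells it stood at 22.5 and 20.3 CPM in Idh1-R132H and 7.77 and 8.42 in Idh1-WT.

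In the T members, neutrophil granule genes and 3 Ly49 receptor genes rose in Idh1-R132H and Lgals1, the galectin-1 gene, fell. Of 1769 genes tested by the quasi-likelihood test of edgeR with Benjamini-Hochberg adjustment, 17 passed an adjusted p of 0.05 (0.961%), 16 higher (0.904%) and 1 lower (0.0565%), and 101 had an unadjusted p below 0.05. The test used 2 libraries per genotype. It shares variance across genes, and the weight of the shared part (median prior degrees of freedom) was infinite in this fit. Its p-values thus rest mainly on the trend over all genes, and less on each gene's own spread between those 4 libraries. Without the S100a8-rich cells that weight was 27.7. When the S100a8-rich cells were left out, 1 of 1624 genes passed (0.0616%), Klra8, and 62 had an unadjusted p below 0.05. DESeq2 passed 0 genes without those cells. The counts that follow are again from fits with the S100a8-rich cells included. There DESeq2 passed 9. Leaving out a library gave 40 calls without Idh1-WT library 1, 11 without Idh1-R132H library 1 and 8 without Idh1-R132H library 2. With at least 3 CD3 UMIs required, 0 genes passed and the smallest adjusted p was 0.998, but Klra8 did not reach the minimum count there.

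The neutrophil genes stood out most in that count. The lactoferrin gene Ltf had 168 and 155 UMIs in the T members of Idh1-R132H and 46 and 64 in those of Idh1-WT, a log2 fold change of 2.03 ± 0.25 (SE, adjusted p = 3.85e-13, edgeR). Ngp had 775 and 598 against 187 and 332 UMIs, a log2 fold change of 1.88. Chil3, a chitinase-like gene, and Mmp8, the neutrophil collagenase gene, rose by 1.93 and 1.88, Lcn2 by 1.62, the cathelicidin gene Camp by 1.25, Retnlg by 1.13, and S100a9 and S100a8 by 1.00 and 0.96. Wfdc21, Ifitm6, Anxa1 and Pglyrp1 rose by 1.95, 1.73, 1.52 and 1.13. In all 13 both Idh1-R132H libraries lay above both Idh1-WT libraries in CPM, as did 12.4% of all genes tested, and the 13 were picked by the same contrast. On the list of neutrophil genes, 8 of 11 tested rose, against 0.904% of all genes tested.

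The calls of neutrophil genes ended without the 14 S100a8-rich cells. Ltf then had 2 and 5 UMIs in Idh1-R132H and 5 and 5 in Idh1-WT, and Ngp had 32 and 41 against 28 and 38. Of the neutrophil list, 0 of 8 genes tested then passed, against 0.0616% of all genes tested. Ltf, Wfdc21, Lcn2, Chil3, Ifitm6, Anxa1 and Mmp8 no longer reached the minimum count. Ngp, Camp, Retnlg, S100a9, S100a8 and Pglyrp1 then had log2 fold changes of 0.62, −0.07, 0.07, −0.01, 0.13 and 0.32. In the 140 cells the neutrophil list summed to 2481 and 4000 CPM in Idh1-R132H and 3330 and 2602 in Idh1-WT, and no list gene was at 0.

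Klra8 kept its call without them. Its counts in the T members were 18 and 12 UMIs in Idh1-R132H and 1 and 0 in Idh1-WT, from 6 and 3 cells against 1 and 0 cells. In CPM both Idh1-R132H libraries were above both Idh1-WT libraries, as was so for 12.4% of all genes tested. The log2 fold change was 4.95 ± 0.98 (SE, adjusted p = 9.01e-05, edgeR) and 4.97 ± 0.94 without the S100a8-rich cells (adjusted p = 0.0187). Summed over libraries without those cells, the ratio of Klra8 to all UMIs was 38.4 times as high in Idh1-R132H as in Idh1-WT, with a 95% exact interval of 6.39 to 1568 that covers counting error only. The 5 richest cells held 80.6% of the Klra8 UMIs. Of the 31 UMIs, 21 were in 5 Idh1-R132H cells with 2 or 3 CD3 UMIs, next to the limit of the T rule. These 5 cells had 2 to 4 of the NK genes of the rule and 7 to 34 UMIs of Fcer1g and Tyrobp. The 127 T members with 4 or more CD3 UMIs and few S100a8 UMIs held 5 and 4 Klra8 UMIs in Idh1-R132H and 1 and 0 in Idh1-WT, from 2 and 2 against 1 and 0 cells. That split by CD3 count was made after the values were seen, and its part in the result was not tested. Without Idh1-R132H library 2 the adjusted p was 0.443, and 0.995 without the S100a8-rich cells too. Without Idh1-R132H library 1 the gene did not reach the minimum count. By DESeq2 its adjusted p was 0.175, and under the other alternatives with all T members it ran between 1.44e-05 and 0.00116.

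Klra1 and Klra4 passed with the S100a8-rich cells in the fit and not without them. Klra1 had 19 and 11 UMIs in the T members of Idh1-R132H and 6 and 1 in those of Idh1-WT, a log2 fold change of 2.43 ± 0.58 (SE, adjusted p = 0.00342, edgeR). Klra4 had 13 and 18 UMIs against 4 and 6, a log2 fold change of 2.03 ± 0.51 (adjusted p = 0.00747). Of the Klra4 UMIs in Idh1-R132H, 10 and 11 were in cells with 2 or 3 CD3 UMIs, against 0 and 0 in Idh1-WT. In the cells with 4 or more CD3 UMIs Klra4 had 3 and 7 UMIs in Idh1-R132H and 4 and 6 in Idh1-WT, which overlapped, while Klra1 had 18 and 7 against 6 and 1. Over all T members both genes were higher in CPM in both Idh1-R132H libraries than in both Idh1-WT libraries, as were 12.4% of all genes tested. Without the S100a8-rich cells, which hold 0 UMIs of either gene, the log2 fold changes were 2.45 and 2.05 and the adjusted p was 0.221 for both. The median prior degrees of freedom of the fit was infinite with those cells and 27.7 without them, and its part in this was not tested. Klra4 also had an adjusted p of 0.108 with no filter on low counts and 0.999 without Idh1-R132H library 2, where its log2 fold change was 1.37. Klra1 had 0.488 without Idh1-WT library 2.

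Of the 19 Ly49 and NKG2 genes on the list, 9 were tested in T members. The 3 above rose, against 0.904% of all genes tested, and the other 6 (Klrk1, Klre1, Klrc1, Klra7, Klra6 and Klra5) did not pass. All 9 were higher in Idh1-R132H, with a median log2 fold change of 1.10, or 1.11 without the S100a8-rich cells, against 0.01 over all genes tested. The count minimum could be met by a single genotype, so genes high in only that genotype could enter the test. Its part in the common direction was not tested. Klrk1 had 51 and 33 UMIs in the T members of Idh1-R132H and 38 and 15 in those of Idh1-WT (log2 fold change 1.04, adjusted p = 0.0729, edgeR). Klre1 had 54 and 16 against 22 and 19 UMIs (1.10, adjusted p = 0.0852). Klra9, the gene of Ly49I, had 14 and 5 UMIs against 0 and 1 and was, like the other 9 genes of the list, below the count minimum. In CPM neither Klrk1 nor Klre1 overlapped between the genotypes, and 12.4% of all genes tested were likewise higher in both Idh1-R132H libraries.

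The Ly49 counts sat in the T members with high Ccl5. Of the 31 Klra8 UMIs, 29 were in the cells without CD8 or Cd4 and with high Ccl5, 17 and 11 in Idh1-R132H and 1 and 0 in Idh1-WT, from 5 and 2 against 1 and 0 cells. That group numbered 17 and 7 cells in Idh1-R132H and 13 and 9 in Idh1-WT. Klra4 had 13 and 14 UMIs in the same group in Idh1-R132H and 4 and 2 in Idh1-WT, and Klra1 had 10 and 6 against 1 and 0. Klra7 in the same group had 38 and 6 UMIs in Idh1-R132H and 15 and 9 in Idh1-WT, so its libraries overlapped. The CD8 cells with low Ccl5 had 0 UMIs of Klra8, Klra4, Klra1 and Klra7 in all libraries.

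In the NK members the same genes had no common direction. Klra8 stood at 876 and 772 CPM in Idh1-R132H and 1319 and 1260 in Idh1-WT, Klra4 at 1194 and 1383 against 565 and 2184, and Klra7 at 637 and 2156 against 2136 and 1176. Klra8 was lower in both Idh1-R132H libraries, while Klra4 and Klra7 overlapped. By itself the fall of Klra8 did not pass (log2 fold change −0.64, adjusted p = 0.836, edgeR). The genotypes did not overlap in CPM for 36.8% of all genes tested in NK members. In Idh1-R132H library 1 the 11 Klra8 UMIs of the NK members came from 1 cell. The difference between the Idh1 effects in T and NK members was tested directly as an interaction with the library as a block. Of 1037 genes tested, 1 passed (0.0964%), Klra8, with a log2 difference of 5.41 (adjusted p = 0.00999, edgeR) and of 5.44 without the S100a8-rich cells (adjusted p = 0.00502, 1 of 915 genes, 0.109%). Over the alternatives with all T members the adjusted p ran between 0.000152 and 0.956. It was 0.956 without Idh1-WT library 2, 0.181 by DESeq2 and 0.0642 with no filter on low counts. Without the S100a8-rich cells it was 0.777 without Idh1-WT library 1 and 0.962 without Idh1-WT library 2, with log2 differences of 7.05 and 4.49.

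**Figure D5:**
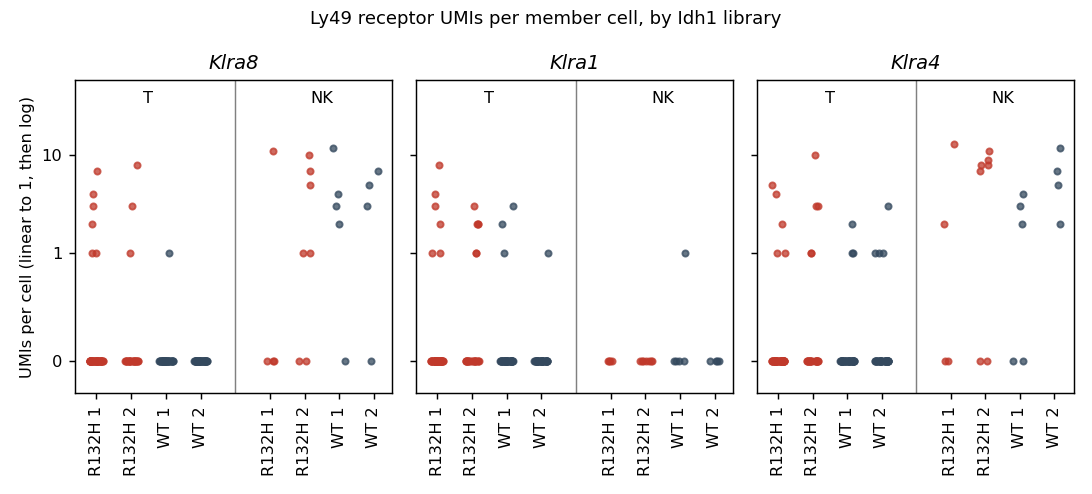
UMIs per cell (y axis, linear to 1 and then logarithmic) of Klra8, Klra1 and Klra4 in the T members (left side of each panel) and NK members (right side), each point 1 cell, by library with the Idh1-R132H libraries first (x axis). Klra8 is seen in 9 T members of Idh1-R132H and 1 of Idh1-WT, and in NK members of all 4 libraries.

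The 3 genes lie in the Ly49 cluster on the minus strand of chromosome 6 (GRCm38): Klra8 at 130115226 to 130129898, Klra1 at 130363917 to 130386874 and Klra4 at 130043731 to 130067271. The cluster consists of near copies, so counts can be split between them. Of the 50-base windows in the last 400 bases of the annotated transcripts, where 3′ reads fall, 15.7% of the Klra8 windows occurred in another gene of the family, among them Klra9 and Klra3. For Klra1 it was 7.80%, shared with Klra4, and for Klra4 it was 0%. The values of Klra8, and of Klra9 with 41.0%, are therefore uncertain as to which copy they count. The promoters are shown because the 3 genes moved the same way in T members. Each runs from 250 bases before to 50 bases after the transcript start (RefSeq, GRCm38.p6, minus strand), at chr6:130129849-130130148 for Klra8, chr6:130386825-130387124 for Klra1 and chr6:130067222-130067521 for Klra4. Capitals mark the 37-base run common to Klra8 and Klra4 and, in Klra1, the RUNX motif TGTGGT and the T-box motif GGTGTGA.
Klra8: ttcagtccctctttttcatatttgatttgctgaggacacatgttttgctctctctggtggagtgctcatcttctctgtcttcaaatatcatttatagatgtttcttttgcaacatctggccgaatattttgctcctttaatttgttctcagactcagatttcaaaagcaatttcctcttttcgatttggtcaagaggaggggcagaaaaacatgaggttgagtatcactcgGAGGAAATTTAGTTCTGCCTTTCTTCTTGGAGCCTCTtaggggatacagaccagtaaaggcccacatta
Klra4: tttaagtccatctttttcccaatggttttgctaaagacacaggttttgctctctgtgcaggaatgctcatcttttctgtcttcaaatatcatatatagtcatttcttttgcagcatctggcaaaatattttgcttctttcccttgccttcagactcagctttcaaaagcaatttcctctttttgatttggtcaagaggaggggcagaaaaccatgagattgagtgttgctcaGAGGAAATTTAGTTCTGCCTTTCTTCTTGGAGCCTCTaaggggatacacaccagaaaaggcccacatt
Klra1: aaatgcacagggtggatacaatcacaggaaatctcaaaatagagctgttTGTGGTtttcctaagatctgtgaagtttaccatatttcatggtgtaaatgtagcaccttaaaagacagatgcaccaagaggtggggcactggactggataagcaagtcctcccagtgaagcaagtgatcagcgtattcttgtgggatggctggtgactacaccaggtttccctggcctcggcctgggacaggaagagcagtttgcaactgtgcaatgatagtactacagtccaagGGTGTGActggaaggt

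The Klra8 and Klra4 promoters were identical at 259 of 299 aligned bases (86.6%), while Klra1 matched Klra8 at 62.0% and Klra4 at 61.0% of 213 aligned bases. The 37-base run occurred in 3 of 32851 mouse promoters of that length, those of 2 genes, Klra8 and Klra4. TGTGGT, searched on both strands, was present in 16.8% of all promoters and GGTGTGA in 3.98%. The TCF/LEF motif CTTTGA, present in 16.0% of all promoters, was in none of the 3. These matches describe the letters in this window.

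Lgals1, the gene of a lectin that binds T cell surface sugars, had 597 and 410 CPM in the T members of Idh1-R132H and 861 and 1463 in those of Idh1-WT. The genotypes did not overlap. In the other direction, 12.4% of all genes tested had both Idh1-R132H libraries above both Idh1-WT libraries. The share of all genes with both Idh1-R132H libraries lower was not computed. Lgals1 fell by 1.09 on the log2 scale (SE 0.24, adjusted p = 0.000754, edgeR). Without the S100a8-rich cells it had 677 and 468 against 902 and 1443 CPM and did not pass (log2 fold change −0.96, adjusted p = 0.221). By DESeq2 the adjusted p was 0.230. Leaving out Idh1-WT library 2, the highest of the 4, gave 0.300.

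Other T cell genes did not pass with or without the S100a8-rich cells. Cd8a had 31 and 19 UMIs in the T members of Idh1-R132H and 17 and 48 in those of Idh1-WT, and Cd8b1 84 and 29 against 71 and 92. Ccr7 had 19 and 7 against 15 and 15. Lef1 had 29 and 19 against 20 and 31. Each of these genes overlapped between the genotypes. Of the 9 genes of naive and recirculating T cells that were tested, 0 passed, with a median log2 fold change of 0.31, and of 13 genes of T cell signalling 0 passed, with a median of 0.11. Cytotoxic effector genes (0 of 4), NK identity genes (0 of 9), interferon response genes (0 of 5), MHC class I genes (0 of 9), S phase genes (0 of 3) and the enzymes of isocitrate and 2-hydroxyglutarate (0 of 4) gave no call either, against 0.961% of all genes. The NK identity genes had a median log2 fold change of 0.37, with 8 of 9 higher in Idh1-R132H, or 0.40 and 9 of 9 without the S100a8-rich cells. The median over all genes tested was 0.01. Here too the count minimum could be met by a single genotype. The 21 dioxygenase genes on the list all fell below the count minimum in T members, as did the 4 DNA methyltransferase genes. Among low counts, Prf1 had 2 and 0 UMIs against 0 and 0, Gzmb 9 and 0 against 3 and 2, Eomes 9 and 6 against 8 and 4 and Foxp3 0 and 0 against 2 and 0.

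In the NK members, 0 of 212 genes passed (0%), with 14 at an unadjusted p below 0.05 and a smallest adjusted p of 0.572 (edgeR), and DESeq2 also called 0. The translation factor gene Eef1a1 had 3663 and 3829 CPM in Idh1-R132H and 5151 and 6887 in Idh1-WT, a log2 fold change of −0.63. Gapdh had 1035 and 933 against 377 and 504, a log2 fold change of 1.18. Nkg7 had 4300 and 3378 against 6533 and 4871, a log2 fold change of −0.60. These 3 genes were among the smallest unadjusted p-values and did not pass. They did not overlap between the genotypes in CPM, as was so for 36.8% of all genes tested. Leaving out Idh1-R132H library 1 gave 8 calls, all higher in Idh1-R132H, and these rest on 1 library of 7 cells against the Idh1-WT libraries.

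The Idh1 effect in the members was also set against that in the other cells of the libraries, in a fit with the library as a block. For T members 17 of 12314 genes passed (0.138%), 15 with a higher effect (0.122%) and 2 with a lower one (0.0162%), most of them neutrophil granule genes. The count was 5 without Idh1-R132H library 1 and 9 without Idh1-R132H library 2. With the S100a8-rich cells left out, 1 of 12303 passed (0.00813%), Lyz2, the lysozyme gene of myeloid cells, with a log2 difference of −1.67 (adjusted p = 0.00192, edgeR). Lyz2 had 23 and 13 UMIs in the T members of Idh1-R132H without those cells and 32 and 117 in those of Idh1-WT, so Idh1-WT library 2 held most of them. In that library the B lineage list of 12 genes summed to 984 CPM, against 63.4 to 197 in the other 3, and the monocyte list of 8 genes to 1072, against 324 to 407. Its T members also had 76 Cd74 UMIs, against 5, 7 and 9 in the others. The B cell genes Pax5 and Ms4a1 were at 0 in all 140 T members. Without Idh1-WT library 2 the log2 difference of Lyz2 was −0.86 (adjusted p = 1), without Idh1-R132H library 1 it was −1.88 (adjusted p = 0.524) and without Idh1-R132H library 2 it was −1.49 (adjusted p = 0.974). For NK members, 0 of 12183 genes passed (0%), with 56 at an unadjusted p below 0.05, and 9 passed without Idh1-R132H library 1.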

How the data were processed

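Single-cell RNA was measured in mouse bone marrow, 2 Idh1-R132H and 2 Idh1-WT libraries. Per the labels' protocols, libraries were made with the 10x Genomics 3′ kit v2. Cell Ranger 4.0.0 and Seurat, and the build GRCm38 (mm10), are named in the submitters' processing notes. The deposited values are raw UMI counts per gene and barcode, per the file headers, and no other unit was used. Barcodes were kept and members chosen by the stated rule. The member rule and the 38 gene lists were chosen with earlier results of these data known.

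Counts were summed per library and kind and tested with the edgeR 4.0.16 quasi-likelihood test (TMM factors, filterByExpr, Benjamini-Hochberg threshold 0.05), in R 4.3.3. T against NK and the differences of effect had the library as a block. The 10 genes of the rule were left out of the calls. T against NK was planned as a test and is given as a description, because the rule made that contrast. Levels are CPM, summed counts scaled to 1000000 UMIs. Library totals were 47025425 and 53387528 UMIs in Idh1-R132H and 56353466 and 40364701 in Idh1-WT, and member sums were 160756, 92691, 149763 and 163334 UMIs for T and 12558, 31082, 15918 and 11906 for NK, in the same order. Shares were compared by exact two-sided permutation over libraries, with exact binomial intervals that cover counting error only. Named genes were, per comparison, the 10 genes that rose most and the 10 that fell most among those past the threshold at a mean log2 CPM of 5 or more, up to 4 genes per list by p, 12 fixed genes and the 10 highest genes of each kind. Some results on single genes, and 1 planned share of T members, are not reported here. Genes outside this rule, such as those describing groups of T members, were named after their values were seen.

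On simulated data 40.7% of genes changed by 1 on the log2 scale and 90.9% of those changed by 2 were recovered for the T comparison (1777 genes). For NK these were 69.0% and 97.3% (215 genes), and for the T minus NK effect 0.952% and 15.9% (1045 genes). Every simulated gene had the dispersion of the trend at its level. Changes were put into 71 of the 215 NK genes and into 200 genes for T and for the T minus NK effect. These settings differ from the real data, so the percentages are not the power of the real tests. Alternatives were DESeq2 1.42.0, RLE factors, no filter, replicate block, other cell limits and leaving out each library. Those without the S100a8-rich cells, without cells whose barcode was kept in another library, and with crossed numbers were added after the data were seen. Of the feature IDs, 27645 of 27998 matched GENCODE vM21 (98.7%). Deviations of same-numbered libraries had correlations of −0.0381 in T and −0.22 in NK members, so the numbers were not taken as pairs. With 2 libraries per genotype these correlations cannot exclude a link, and the 2 libraries numbered 1 shared 345 kept barcodes. Whether donor mice were separate is not given in the sources used here, so p-values cannot be read as spread between donors. The edgeR p-values rest in part on variance shared across genes. At the median gene it was wholly shared in the T genotype fit with all members and in the fits against other cells.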

Additional observations from a re-analysis of the deposited data

Results flagged for a closer look

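The Idh1 effect differed between T members and NK members for 1 gene, by the test of the difference itself. Klra8 had a log2 difference of 5.41, T minus NK. Its counts were higher in the T members of 2 of 2 Idh1-R132H libraries, and its levels lower in the NK members of both. In the NK members alone the fall did not pass (log2 fold change −0.64, adjusted p = 0.836, edgeR). The T minus NK difference had an adjusted p of 0.181 by DESeq2 and 0.0642 by edgeR with no filter on low counts. The 13 T members with 2 or 3 CD3 UMIs and few S100a8 UMIs held 21 Klra8 UMIs, and the 127 with 4 or more held 10.

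The Idh1 effect differed between T members and the other cells of the libraries for 17 genes by the same kind of test. Of these, 13 are neutrophil or myeloid genes whose log2 differences were 2.06 for Ltf, 2.05 for Chil3, 1.95 for Mmp8, 1.92 for Wfdc21, 1.90 for Ngp, 1.68 for Ifitm6, 1.67 for Lcn2, 1.48 for Anxa1, 1.43 for Camp, 1.30 for Retnlg, 1.19 for Pglyrp1, 1.04 for S100a9 and 1.02 for S100a8. None of the 13 passed without the S100a8-rich cells. Gm5483 had a log2 difference of 13.6 from 13 and 0 UMIs in the T members of Idh1-R132H and 0 and 0 in those of Idh1-WT, all 13 in S100a8-rich cells. Ccl5 had a log2 difference of 0.88, with 919 and 609 UMIs in the T members of Idh1-R132H and 957 and 695 in those of Idh1-WT, and 436 and 503 against 718 and 664 in the other cells. With the S100a8-rich cells left out its adjusted p was 0.232 (edgeR), and that of Cd74 and of Myl10 was 0.296.

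Cd74, the invariant chain gene of antigen-presenting cells, had a log2 difference of −1.76 from 5 and 8 UMIs in the T members of Idh1-R132H and 9 and 79 in those of Idh1-WT. Myl10 had a log2 difference of −4.03 from 1 and 0 UMIs in the T members of Idh1-R132H and 38 and 0 in those of Idh1-WT. In the other cells Myl10 had 6003 and 2801 UMIs in Idh1-R132H and 15667 and 2800 in Idh1-WT.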

How the results depend on the processing

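The count of genes that changed with Idh1-R132H in T members depended on which cells counted as T members and on the libraries. It was 17 as reported, 0 with 3 or more CD3 UMIs, 1 without the S100a8-rich cells, 9 by DESeq2 and 8 to 40 when 1 library was left out. Without the S100a8-rich cells DESeq2 called 0, and edgeR with 1 library left out called 1 to 27. In NK members the count was 0 to 8 when 1 library was left out. Genes passing between T and NK members numbered 157 with no filter on low counts, against 42 as reported, and 32 to 102 when 1 library was left out. Genes whose Idh1 effect differed between T and NK members numbered 0 with no filter, 0 by DESeq2 and 0 to 4 with 1 library left out. Between T members and other cells they numbered 1 without the S100a8-rich cells and 5 to 21 with 1 library left out, and between NK members and other cells 0 to 9.

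Differences in shares, Idh1-R132H minus Idh1-WT in percentage points, turned sign in 12 recomputed values and not in 100. The T share of T and Cd79a cells was −0.386 with 3 or more CD3 UMIs. The CD8 share of T members was −0.00984 with at most 5% mitochondrial UMIs and −1.60 without members whose barcode was kept in another library. With 1 library left out the differences ran between −0.469 and 0.190 for T members of all cells, −0.00847 and 0.0454 for NK members of all cells, −12.0 and 2.02 for T members of both kinds, −4.20 and 5.68 for T members of T and Cd79a cells, −4.66 and 4.79 for CD8, −4.13 and 1.14 for Cd4 and −23.2 and 26.8 for Cd27 among NK members. Among named genes, 6 values turned sign. Retnlg was −0.61 on the log2 scale with 3 or more CD3 UMIs. Without the S100a8-rich cells the log2 values of S100a9 and Camp were −0.0143 and −0.0661 for the genotypes, and S100a8, S100a9 and Camp were −0.41, −0.45 and −0.33 for T against NK members. A further 157 values kept their direction and lost their call, 4 gained one and 829 kept both. Apart from the settings named, the cause was not tested.

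With the replicate number as a block, 16 genes passed in T members and 0 in NK members, but the numbers were not taken as pairs. With the numbers crossed, 0 genes passed in NK members. Without the 5 members whose barcode was kept elsewhere, 17 genes passed in T members, 0 in NK members, 39 between the kinds, 38 of them in the reported set, and 1 for the difference of effect.

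Genes below the count minimum were not tested, which left 1769 genes in T members and 212 in NK members.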
